A study of Caenorhabditis elegans with 12 samples.

Results

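Described here are 5 genes of the Caenorhabditis elegans oocyte and eggshell, cpg-1, cpg-2, cbd-1, rme-2 and oma-2, out of 2949 genes with values in the 3 tables that the authors deposited. They were picked by name from the union of those tables, with their values already known. All 5 are in the table of genes listed in lin-65 embryos, and cpg-1, cpg-2 and cbd-1 are also listed in the lin-65 met-2 double mutant. The study sequenced total RNA of early embryos, between 1 and 300 cells, from worms grown at 20 °C for 60 to 65 h. The groups were the wild type, strain N2 (Bristol); a met-2 mutant, met-2(n4256) III; a lin-65 deletion mutant, lin-65(delta) I; and the double mutant, which carries lin-65(delta) I together with met-2(n4256) III. Each had 3 libraries, which the labels call independent biological replicates, and only the mutant libraries have values. MET-2 is the SETDB1-like enzyme that dimethylates histone H3 at lysine 9, with LIN-65 as a cofactor, so every mutant group lacks a part of the same machinery. Growth time depended on the strain, and its effect cannot be told apart from that of the genotype.

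The fully grown oocyte stores the material of the future eggshell and the maternal RNA of the embryo. The eggshell is built in layers, an outer vitelline layer, a chitin layer and an inner layer of chondroitin proteoglycans. Yolk taken up by the oocyte feeds the embryo. Transcripts for these tasks are made in the germ line, are inherited by the zygote and are then cleared as embryonic transcription begins. CPG-1 and CPG-2 are chitin-binding chondroitin proteoglycans of the inner layer, and CBD-1 is a chitin-binding protein needed to build the outer layer. RME-2 is the oocyte receptor for yolk, of the LDL receptor family. OMA-2 is a CCCH zinc-finger protein that binds maternal RNA and, redundantly with OMA-1, lets the oocyte mature.

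Values are log2 ratios per library. The baseline is not named in the tables and was taken as N2, because each mutated gene lay far below 0 in the strains that lack it and near 0 in the other. The ratio of lin-65 itself was −5.88 ± 0.09 (SD, n = 3, as for all values after a ± sign) in its own mutant, −6.04 ± 0.21 in double mutant embryos and −0.22 ± 0.04 without MET-2 alone. For met-2 the mean was −2.36 ± 0.04 in its mutant, −2.76 ± 0.06 in double mutant embryos and −0.02 ± 0.08 without LIN-65 alone. N2 libraries have no column, so their spread is unknown, nothing was tested against N2, and depth is unknown. The oocyte or embryo identity of the samples could not be checked by level, since the tables hold ratios of selected genes. Library medians over all 2949 genes ran from 1.06 to 1.53 in met-2, 0.77 to 0.97 in lin-65 and 1.47 to 1.49 in the double mutant, with replicate 1 of met-2 highest.

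All 5 transcripts were highest in lin-65, intermediate in the double mutant and lowest in met-2. In every case each lin-65 library lay above each double mutant library, which lay above each met-2 library. Over all genes with values, 2.54% showed this order, and among the 854 genes listed higher in lin-65, 8.67% did. Since the 5 genes are all listed in lin-65 and were picked with their values known, the order is given as a description. In this bulk RNA, more cells or embryos rich in these transcripts and more transcript per cell cannot be told apart.

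**Figure D1:**
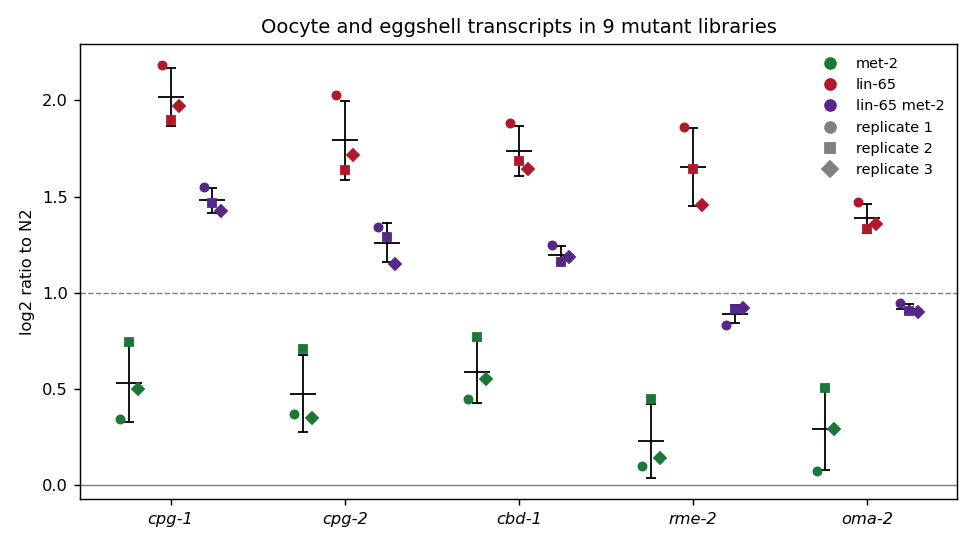
Log2 ratio to N2 (vertical axis) of the 5 genes (horizontal axis) in each of 9 mutant libraries; points are libraries, shaped by replicate number, horizontal ticks are means and bars are SDs over 3 libraries, and the dashed line marks 1 log2 unit. For each gene the lin-65 points lie above the double mutant points and these above the met-2 points, and cpg-1 has the highest mean in both groups that lack LIN-65.

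In both groups that lack LIN-65, cpg-1 had the highest ratio, followed by cpg-2, whose mean in lin-65 did not differ from that of cbd-1 beyond the spread. The cpg-1 transcript (WBGene00000465, chromosome III) stood at 2.19, 1.90 and 1.97 in the lin-65 libraries, at 1.55, 1.46 and 1.42 in the double mutant and at 0.34, 0.74 and 0.50 in met-2. Its mean in lin-65, 2.02 ± 0.15, is a 4.05-fold ratio to N2, against 2.79-fold in the double mutant and 1.44-fold in met-2. Its protein has 584 residues in the annotation, and the second proteoglycan, CPG-2, has 524. The cpg-2 transcript (WBGene00015102, also chromosome III) followed closely, at 2.03, 1.64 and 1.72 in lin-65, at 1.34, 1.29 and 1.15 in the double mutant and 0.37, 0.70 and 0.35 in met-2. The means were 1.79 ± 0.21, 1.26 ± 0.10 and 0.47 ± 0.20. The ratio of cpg-1 exceeded that of cpg-2 in all 3 lin-65 libraries, by 0.22 on average, and by 0.22 in the double mutant, again in all 3 libraries. In met-2 the ratios of both genes differed by 0.05, within the spread between libraries.

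The chitin-binding gene cbd-1 (WBGene00010351, chromosome IV) encodes the longest protein of the group, with 1319 residues. Its transcript stood at 1.88, 1.68 and 1.64 in lin-65, at 1.25, 1.16 and 1.19 in the double mutant and 0.45, 0.77 and 0.55 in met-2. The means were 1.74 ± 0.13, 1.20 ± 0.05 and 0.59 ± 0.17. In lin-65 its ratio differed from that of cpg-2 by 0.06, within the SD of either gene, and it had the highest met-2 mean of the 5.

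The genes acting in the oocyte itself had lower ratios in the double mutant. The yolk receptor gene rme-2 (WBGene00004374, chromosome IV) stood at 1.86, 1.64 and 1.46 in lin-65, at 0.83, 0.92 and 0.92 in the double mutant and at 0.10, 0.45 and 0.14 in met-2. Its lin-65 mean, 1.66 ± 0.20, lay within the spread of that of cbd-1, while its double mutant mean, 0.89 ± 0.05, was well below the 1.20 of cbd-1. The oocyte maturation gene oma-2 (WBGene00003865, chromosome V) had the lowest lin-65 ratios, at 1.47, 1.33 and 1.35, with 0.94, 0.91 and 0.90 in the double mutant and 0.07, 0.50 and 0.29 in met-2. Its means were 1.39 ± 0.08, 0.92 ± 0.02 and 0.29 ± 0.21. In the double mutant and in met-2, rme-2 and oma-2 did not differ beyond their spread, whereas in lin-65 rme-2 exceeded oma-2 by 0.27.

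No gene in an authors' table has an absolute mean below 1 log2 unit in the mutant concerned, and the smallest was 1.00 in each table. This limit was not the only criterion, since 94 genes for met-2, 219 for lin-65 and 23 for the double mutant met it without being in the table concerned. All 5 genes were listed in lin-65, where 29% of genes with values were listed higher. In the double mutant cpg-1, cpg-2 and cbd-1 were listed and rme-2 and oma-2 were not, against 85% of genes with values. The listed gene nearest to the limit there was cbd-1 at 1.20, and just outside lay oma-2 at 0.92 and rme-2 at 0.89. None was listed in met-2, against 65.2% of genes with values, although all 15 met-2 values of the 5 genes were above 0. That sign rests on the deposited scaling: with each library's median over all 2949 genes set to 0, all 15 were below 0, with means of −0.997 to −0.634. The genes in the tables were selected mainly for high ratios, so these medians are themselves shifted by the selection.

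To ask how loss of LIN-65 changed these transcripts when MET-2 was already absent, the double mutant was compared with met-2. This comparison uses no lin-65 library for its means and cancels the N2 baseline. It is not free of selection, since cpg-1, cpg-2 and cbd-1 are listed in the double mutant and none of the 5 in met-2. Its SE comes from all 9 libraries, lin-65 included. The adjusted p are thus given as a description. All 5 genes were higher in the double mutant, and all 5 passed limma's test over the 2949 genes at an adjusted p under 0.05 (11.8% of genes were called higher and 16.7% in either direction). The difference was 0.95 for cpg-1 (SE 0.17, 95% interval 0.58 to 1.32, limma adjusted p = 0.00147), which is 1.93-fold. For cpg-2 it was 0.79 (SE 0.18, limma adjusted p = 0.00842). The other genes had smaller differences, 0.66 for rme-2, 0.63 for oma-2 and 0.61 for cbd-1, with limma adjusted p of 0.0212, 0.0230 and 0.0253. Each of the 3 double mutant libraries exceeded each of the 3 met-2 libraries for every one of the 5 genes, as it did for 27.7% of all genes.

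The median of all genes was itself 0.32 higher in the double mutant than in met-2. With each library's median set to 0, which lowers the double mutant against met-2 by 0.26, the differences kept their sign but only that of cpg-1 still passed (0.69, limma adjusted p = 0.0469). The others fell to 0.53 for cpg-2, 0.40 for rme-2, 0.37 for oma-2 and 0.35 for cbd-1, with limma adjusted p of 0.113 to 0.251. Only cpg-1 and cpg-2 passed when replicate 3 of met-2 or any of the double mutant libraries was left out.

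**Figure D2:**
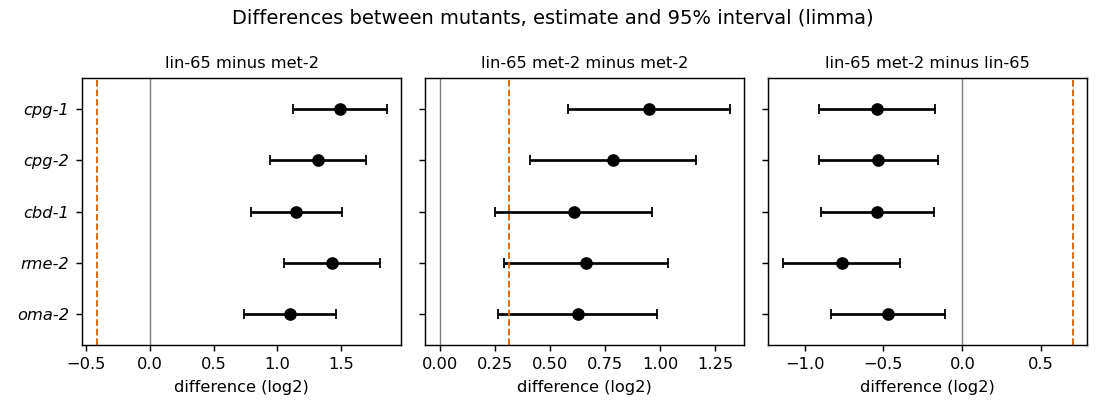
Differences in log2 ratio (horizontal axes) between mutants for the 5 genes, with limma's estimate as a point and its 95% interval as a bar; the dashed line is the median difference of all 2949 genes. In the first and last panels the 5 genes lie on the other side of 0 from that median, and in the middle panel they lie above it with intervals that for cbd-1, rme-2 and oma-2 reach it.

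To ask what loss of MET-2 adds when LIN-65 is absent, the double mutant was set against lin-65. The 5 transcripts were lower in the double mutant, by 0.77 for rme-2 and by 0.47 for oma-2, with cpg-1, cbd-1 and cpg-2 at differences of −0.54, −0.54 and −0.53. The double mutant thus held between 58.8% (rme-2) and 72.2% (oma-2) of the lin-65 level. With library medians set to 0 the differences were larger, from −1.41 to −1.11, which is 37.7% to 46.3% of the lin-65 level. The general trend was the opposite. The median difference of all 2949 genes was 0.70, and limma called 78.9% of them, with 74.3% higher and 4.61% lower in the double mutant and all 5 genes among the latter (SE 0.17 to 0.18). Of all genes, 101, the rest of the 5 included, had a difference below that of oma-2, which was nearest to 0 of the 5. Each double mutant library lay below each lin-65 library for all 5 genes, as it did for 5.9% of all genes. All 5 genes are listed by their lin-65 values, which favours a high lin-65 mean. No p is therefore given and the count is not read against the background. Without replicate 1 of lin-65, the highest lin-65 library for every one of the 5 genes, cbd-1 and rme-2 were still called, and the differences of cpg-1, cpg-2 and oma-2 were −0.46, −0.42 and −0.43. Without replicate 3 of the double mutant 3 were called, without cpg-2 and oma-2, and without its replicate 2 oma-2 was not called.

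Against met-2, lin-65 had higher ratios of all 5 genes, by 1.49 for cpg-1, 1.43 for rme-2, 1.32 for cpg-2, 1.15 for cbd-1 and 1.10 for oma-2 (SE 0.17 to 0.18). These are 2.81-fold to 2.14-fold. The median of all genes went the other way, at −0.42, and limma called 46.8% of genes, with 4.92% higher and 41.9% lower in lin-65. All 5 genes were among those called higher, but all 5 are listed by their lin-65 values and were picked with their values known. Of the 2949 genes 43, the other 4 included, had a difference above that of oma-2. With library medians set to 0, the share called higher among all calls went from 10.5% to 41.2% in this comparison, from 70.6% to 34.5% for the double mutant against met-2 and from 94.2% to 56.7% for the double mutant against lin-65.

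**Figure D3:**
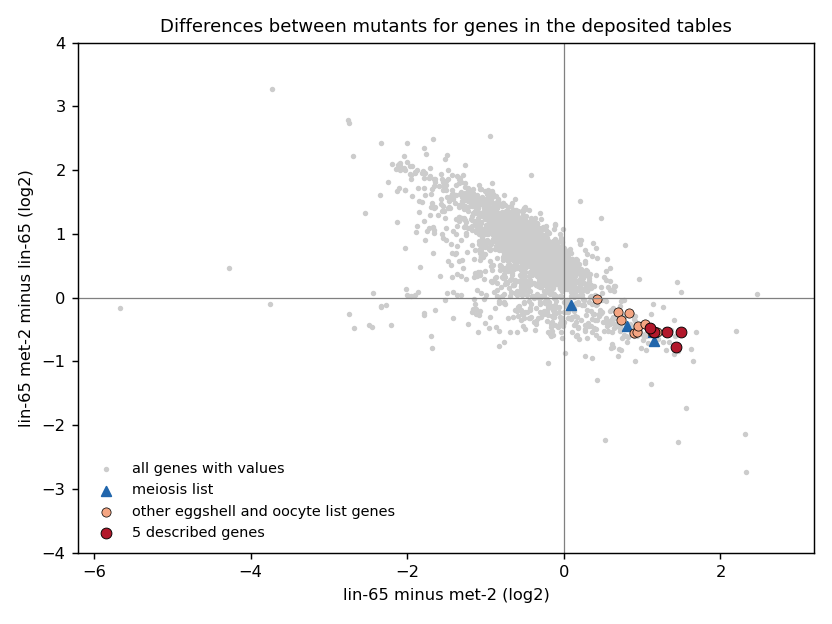
Each point is a gene with values, placed by its difference of lin-65 from met-2 (horizontal, log2) and of the lin-65 met-2 double mutant from lin-65 (vertical, log2); both axes use the same lin-65 libraries, so they are not independent. The 5 genes sit at the lower right, at horizontal values of 1.10 to 1.49 and vertical values of −0.77 to −0.47, beside other eggshell and oocyte genes.

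Added on the log2 scale, the means of the single mutants came to more than the double mutant showed. For cpg-1 the sum was 2.55 against 1.48 measured, for cbd-1 2.33 against 1.20 and for cpg-2 2.27 against 1.26. For rme-2 it was 1.88 against 0.89 and for oma-2 1.68 against 0.92. The shortfall was thus between 0.76 and 1.13 log2 units, and between 0.18 and 0.55 with library medians set to 0. It contains the N2 baseline, whose error is unknown, and was not tested. On the deposited scale all met-2 libraries lay above 0 while all double mutant libraries lay below all lin-65 libraries for the 5 genes, and for 3.09% of all genes and 10.2% of those listed higher in lin-65. With library medians set to 0 the signs no longer differed, since the met-2 values were then below 0.

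Replicates of a mutant differed in a way that the 5 genes shared with other genes of their pattern. In met-2 all 5 were highest in replicate 2, the replicate in which 8.41% of all genes were highest. Replicate 1, in which 83.5% of all genes were highest, gave the lowest mean of the 5, 0.27 against 0.63 and 0.37 in replicates 2 and 3. In lin-65 all 5 were highest in replicate 1, where 16.9% of all genes were highest, and the means of the 5 genes were 1.89, 1.64 and 1.63. Of the 75 genes that had the same order of mutants without overlap, 72.0% were highest in replicate 2 of met-2 and 68.0% in replicate 1 of lin-65. In the double mutant the means of the 5 genes, 1.18, 1.15 and 1.12, were close together. The part of this library variation in the differences between mutants was not tested beyond leaving each library out.

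**Figure D4:**
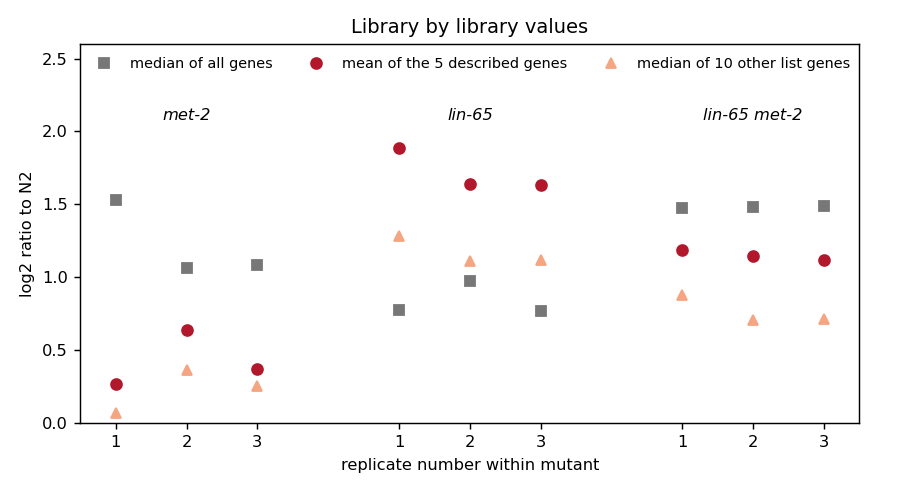
Log2 ratio to N2 (vertical axis) in each library, by replicate number within each mutant (horizontal axis), as the median of all 2949 genes, the mean of the 5 described genes and the median of 10 other eggshell and oocyte genes. In met-2 the all-gene median is highest in replicate 1 and the 5 genes are highest in replicate 2, while in lin-65 the 5 genes lie above the all-gene median in every library and in the other mutants below it.

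Across the 9 libraries the profiles of the 5 genes were alike. Pairwise Pearson's r was between 0.971 (cpg-1 with rme-2) and 0.994 (cbd-1 with oma-2), given as a description, since the points share libraries and fall into 3 groups. The root mean square difference between profiles was smallest for cpg-2 with cbd-1, at 0.11 log2 units, and largest for cpg-1 with oma-2, at 0.51. By position they had nothing obvious in common. They lie on chromosomes III, IV and V, overlap no other annotated gene, and neither protein-coding neighbour of any of them had values in the tables.

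The other genes of the same tasks came from lists of eggshell genes, oocyte and maternal RNA regulators, and yolk proteins with their trafficking. Of 20 eggshell genes 8 had values and of 29 oocyte genes 7 did, while none of the 14 yolk genes did, so the ligands of RME-2, the vitellogenins, cannot be described. All 15 genes with values were listed in lin-65, 5 were listed in the double mutant and none in met-2. Of all genes with values, 29% were listed higher in lin-65, 85% in the double mutant and 65.2% in met-2. A gene has values only if it is listed in some mutant, so these counts are a description. Genes without values may have changed by less than the limit or failed another criterion of the authors. The lin-65 medians were 1.22 for eggshell and 1.28 for oocyte genes, against 0.83 for all genes with values. In the double mutant the medians were 0.88 and 0.89 against 1.47, and in met-2 0.45 and 0.23 against 1.20. The medians are a description too. All 15 genes are listed higher in lin-65, so lin-65 medians above 1 followed from the selection. Low medians in met-2, where none is listed, were favoured by it.

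The 10 genes beyond the 5 described had lower lin-65 ratios, from 1.01 to 1.36. The Pumilio-family RNA-binding gene puf-5 stood at 1.36 ± 0.12 in lin-65, 0.81 ± 0.05 in the double mutant and 0.17 ± 0.16 in met-2. The gene lin-41, a TRIM-NHL RNA regulator that restrains oocyte maturation, stood at 1.28 ± 0.07, 1.04 ± 0.06 and 0.45 ± 0.08. The eggshell gene cpg-3 stood at 1.22 ± 0.09, 0.87 ± 0.22 and 0.49 ± 0.06. The gene egg-1, for an oocyte surface protein with LDL receptor repeats that is needed for fertilization, stood at 1.22 ± 0.20, 0.67 ± 0.09 and 0.08 ± 0.17, and perm-1 stood at 1.20 ± 0.22, 0.65 ± 0.23 and 0.26 ± 0.15. In each of these the lin-65, double mutant and met-2 libraries followed in this order without overlap. The exception among the 15 was car-1, for an RNA-binding protein of germ granules, with 1.27 ± 0.15 in lin-65, 1.25 ± 0.08 in the double mutant and 0.85 ± 0.12 in met-2. Its lin-65 and double mutant libraries overlapped.

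In the double mutant against met-2, 9 of the 15 genes passed limma's test in the higher direction and none in the lower, with a median difference of 0.60 against 0.32 for all genes. Beside the 5 genes these were puf-5, puf-11, lin-41 and egg-1, with differences of 0.64, 0.63, 0.60 and 0.59 and limma adjusted p of 0.0192, 0.0245, 0.0228 and 0.0337. The share of all genes called higher was 11.8%, as given above. These genes had also been listed by their lin-65 values. Of the 15 genes 14 were highest in replicate 2 among met-2 libraries and 14 in replicate 1 among lin-65 libraries, as the 5 genes were.

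Genes of other cells of the adult gonad were looked at because embryos are collected from egg-bearing adults. Of 26 meiosis genes 4 had values, and him-3 and syp-2, for a chromosome axis protein and a synaptonemal complex protein, ran in the same order. Their means were 1.19 and 1.15 in lin-65 embryos, 0.51 and 0.61 in double mutant embryos and 0.03 and 0.01 in met-2. The others did not keep this order. The means of dsb-2, a gene for meiotic double-strand breaks, were 1.02, 0.91 and 0.93 in lin-65, double mutant and met-2 embryos. For him-5 they were 1.00, 0.57 and 0.20, with lin-65 and double mutant libraries overlapping. Of 7 genes of gonadal sheath and spermatheca 2 had values. The homeobox gene ceh-18 stood at 0.35 in lin-65, 1.97 in the double mutant and 2.05 in met-2, and ipp-5 at 1.63, 2.70 and 2.06, so neither was highest in lin-65. Of 74 sperm genes 4 had values, with medians of 0.71 in lin-65, 1.13 in the double mutant and 1.45 in met-2, and no major sperm protein gene was among them. Of 44 first zygotic genes only sdz-6 had values, at −1.47, −1.64 and −1.60. Most defining genes of these tissues thus have no value, and their part in the result was not tested.

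Among all genes, 75 had the full order of lin-65 over the double mutant over met-2. Eggshell genes with values numbered 8, and all 8 were among them, as were 6 of 7 oocyte genes and 2 of 4 meiosis genes. These eggshell, oocyte and meiosis genes are all listed in lin-65 and none is listed in met-2. For them a place of lin-65 above met-2 was thus largely set by the authors' selection. Among the 854 genes listed higher in lin-65 the share with the full order was 8.67%. The genes named were 16 of the 19 with values on the 3 lists, and the remaining 59 of the 75 were on none of them. Ranked by lin-65 mean, cpg-1 was the highest of the 75. No gene of the sheath and spermatheca, sperm or first zygotic lists was among them. All genes of those lists that have values are listed in met-2, so this contrast between lists is not free of the authors' selection either.

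The 8 genes whose profile lay nearest to the mean of the 5, by root mean square difference over the 9 libraries, were gln-5, cey-2, pgl-3, W05F2.3, lin-41, dgtr-1, lbp-9 and cpb-1. Their distances ran from 0.13 to 0.29 log2 units, against a median of 0.88 over all genes, and from 0.10 to 0.27 for the 5 genes themselves. The nearest, the glutamine synthetase gene gln-5, stood at 1.73 ± 0.11 in lin-65, 1.20 ± 0.08 in the double mutant and 0.55 ± 0.16 in met-2, and it was the closest gene to cbd-1. The Y-box RNA-binding protein gene cey-2 stood at 1.79, 1.25 and 0.10. The P granule gene pgl-3, at 1.44, 0.92 and 0.33, was closest to rme-2. The profile closest to that of oma-2 was W05F2.3, at a distance of 0.04, with means of 1.39, 0.94 and 0.28. For dgtr-1, an acyltransferase gene needed for the lipid barrier of the eggshell, the means were 1.48, 0.76 and 0.40.

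**Figure D5:**
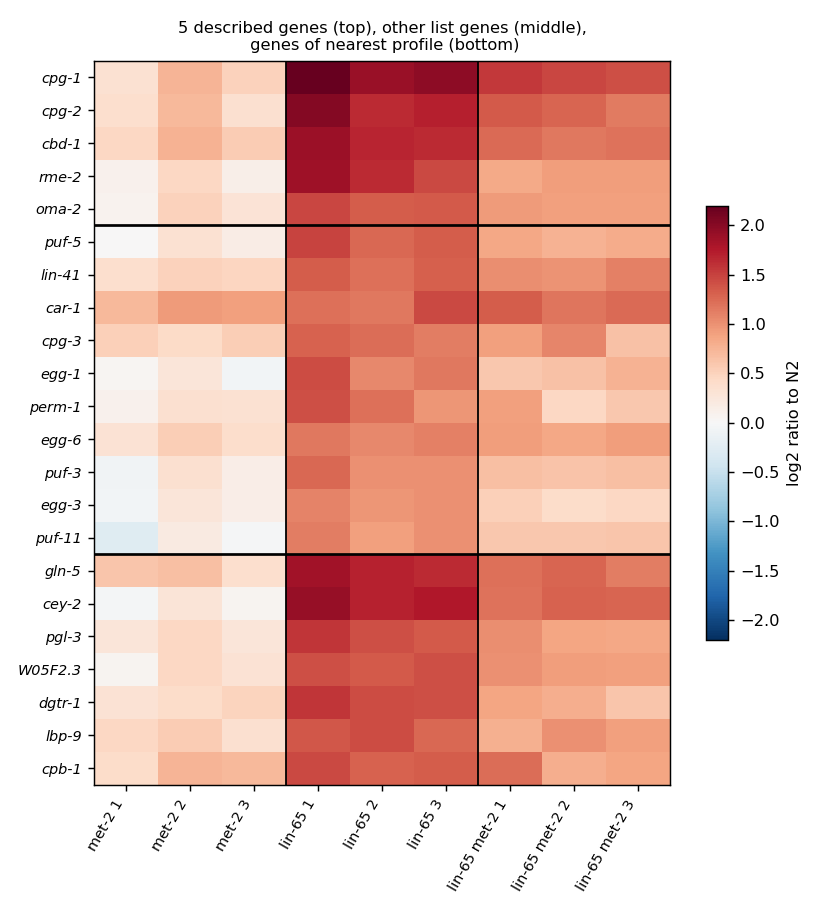
Log2 ratio to N2 (colour) of the 5 described genes, 10 other eggshell and oocyte genes and 7 further genes of nearest profile (rows) in the 9 mutant libraries (columns). In lin-65 columns every row is positive, with the highest cell at 2.19 for cpg-1 in replicate 1, and the met-2 columns are the palest.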

How the data were processed

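Total RNA libraries from early embryos, depleted of ribosomal RNA, were described by 3 tables of log2 values deposited by the authors, 1 per mutant, each with 9 mutant library columns. The build ce10 and the tool edgeR were used, per the submitters' processing notes. How reads were aligned, counted and scaled is not stated in the sources used here. The tables were joined by gene identifier, and genes in several tables had identical values. Of 2949 genes 2869 matched the Ensembl 115 annotation of WBcel235, used for names, chromosomes and coding lengths only. Mutants were compared with limma 3.58.1 in R 4.3.3 on all 2949 genes, with all 9 libraries, no covariate, 2-sided tests and Benjamini-Hochberg adjustment at 0.05. The method was tried on simulated data without shifts of whole libraries, so that trial says nothing about such shifts in these data. Genes selected by the authors are not the genome, so percentages of calls describe the tables. The 5 genes, the lists and the tests were chosen with earlier results of these data known. The text names the 5 genes, the 6 other list genes of highest lin-65 mean, genes of other tissues and the 8 nearest profiles; puf-11 was added after its values were seen. Alternatives were centring, a replicate block, fewer libraries or genes, other variance settings, array weights, a 2-fold limit and leaving out each library.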

Additional observations from a re-analysis of the deposited data

Results flagged for a closer look

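On the deposited scale, loss of MET-2 went with opposite signs for the 5 genes where LIN-65 was present and where it was missing. All met-2 libraries lay above the N2 baseline of 0, with means of 0.53 for cpg-1, 0.47 for cpg-2, 0.59 for cbd-1, 0.23 for rme-2 and 0.29 for oma-2. Where LIN-65 was missing as well, all double mutant libraries lay below all lin-65 libraries, with differences of −0.54 for cpg-1, −0.53 for cpg-2, −0.54 for cbd-1, −0.77 for rme-2 and −0.47 for oma-2. The same held for 4 of the 6 other eggshell and oocyte genes named, with differences of −0.54 for puf-5, −0.24 for lin-41, −0.35 for cpg-3 and −0.54 for perm-1. Among the further genes of nearest profile it held for gln-5 (−0.52), pgl-3 (−0.53), W05F2.3 (−0.45), dgtr-1 (−0.72), lbp-9 (−0.46) and cpb-1 (−0.40). Of these differences, limma did not call those of lin-41, cpg-3 and cpb-1. All the genes named here are listed in lin-65, which favours a high lin-65 mean. Calls of the other differences are therefore not read as support. Over all genes with values 3.09% met this pattern, and 10.2% of those listed higher in lin-65 did. With library medians set to 0 the contrast of signs ended, since the met-2 means of the 5 genes became −0.997 to −0.634 and the differences of the double mutant from lin-65 were −1.41 to −1.11. The difference between the backgrounds was not tested, since N2 libraries have no column, and the 5 genes were picked with their values known.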

How the results depend on the processing

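No difference of the 5 genes changed sign under the alternatives, and those of the double mutant from met-2 stayed past the threshold in 57 of 78 recomputed values. All 5 genes are listed by their lin-65 values, which favours calls that involve lin-65. The corresponding 80 of 80 for lin-65 against met-2 and 69 of 80 for the double mutant against lin-65 are thus not read as a sign of stability. Nor are the 57 of 78, since cpg-1, cpg-2 and cbd-1 are listed in the double mutant. They also include fits without a lin-65 library, which leave the difference of the double mutant from met-2 unchanged. With library medians set to 0, limma called 889 of 2949 genes for lin-65 against met-2 (1381 as reported), 1123 for the double mutant against lin-65 (2326) and 1 of the 5 genes for the double mutant against met-2. That centring also moved the levels, and turned the sign of all 5 in the groups that lack MET-2, with cpg-1 in the double mutant near 0. In met-2 they became −0.70 for cpg-1, −0.75 for cpg-2, −0.63 for cbd-1, −0.997 for rme-2 and −0.93 for oma-2. In lin-65 they became 1.18, 0.95, 0.90, 0.82 and 0.55 in the same order, and in the double mutant −0.0029, −0.22, −0.28, −0.59 and −0.57. A difference of at least 1 log2 unit was also required on top of the adjusted p. Both were met by 393, 85 and 716 genes for lin-65 against met-2, the double mutant against met-2 and the double mutant against lin-65. Of the 5 genes 5, 0 and 0 met both. At an unadjusted p under 0.05 limma called 5 of 5 in each, and 1640, 1201 and 2374 of all 2949 genes in the same order. Array weights gave 2237 calls for the double mutant against met-2 (493 as reported). With only genes of the 2 tables concerned, 3 of the 5 were called there, because rme-2 and oma-2 are in neither table. Leaving out each library gave 903 to 1565 calls for lin-65 against met-2, the lowest without replicate 1 of lin-65. For the double mutant against met-2 it gave 153 to 1960, the highest without replicate 1 of met-2, and 2 to 5 of the 5 genes. For the double mutant against lin-65 it gave 1987 to 2501 calls, and 2 to 5 of the 5 genes. The causes of these shifts were not tested. Libraries with the same replicate number did not deviate together, with r of −0.21 to 0.04 over 9 pairs. A fit with the replicate number as a block gave 1263, 382 and 2233 calls and 5 of 5 genes in each comparison. Depth is unknown and sets no interval here.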
